A study of Homo sapiens with 10 samples.

Results

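CAT, PNPLA4, CYP2R1, ZNF572, NHLH2, CLEC2A, GLT6D1, LCN9, SYNC and LRRC37A11P are 10 genes, of 32152 in the count table, whose mRNA was scarce or missing in wild-type (WT) human embryonic stem cells and present in cells labelled as KCNH2 knockout. They were picked by that very difference, so each knockout-against-WT value of these genes is given below as a description and without a test. PolyA RNA was sequenced from 5 knockout libraries, KCNH2-/- cells grown in mTeSR Plus, and from 5 WT libraries of isogenic cells grown in TeSR-E8. Both groups were cells of the line WAe009-A (H9) on Matrigel in the pluripotent state, and because the medium differs in every library, genotype and medium cannot be told apart. The labels call the edited cells a knockout in the titles and a knockdown in the genotype field; the 5 knockout titles share a prefix that the WT titles lack and that is not explained, and whether the cells are 1 clone is not stated. KCNH2 encodes hERG1, a voltage-gated potassium channel, and the series asks which transcripts depend on it.

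The 10 genes share no pathway. CAT encodes catalase, the peroxisomal enzyme that splits hydrogen peroxide into water and oxygen. PNPLA4 encodes a patatin-like lipase that acts on acylglycerols and retinyl esters, and CYP2R1 a microsomal cytochrome P450 that carries out the 25-hydroxylation of vitamin D. NHLH2 encodes a basic helix-loop-helix transcription factor of neurons, and ZNF572 a zinc finger protein. CLEC2A encodes a C-type lectin-like surface protein known from skin, a ligand of an activating receptor of natural killer cells. LCN9 encodes a lipocalin, a family of small secreted carriers of lipophilic molecules, and GLT6D1 a member of a glycosyltransferase family. SYNC encodes syncoilin, an intermediate filament protein that binds a dystrophin-associated partner in muscle, and LRRC37A11P is annotated as a transcribed pseudogene.

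Total counts ran between 29788732 and 40587206 per knockout library and between 28615751 and 47319933 per WT library. CPM are counts per 1000000 of the TMM-scaled library size. Where a library shows 0 counts, up to 3 counts are still compatible, which is 0.0634 to 0.105 per 1000000 of the unscaled total counts. KCNH2 mRNA measured 12.2 ± 1.001 CPM in knockout libraries, against 15.5 ± 0.754 CPM in WT libraries (SD, n = 5 each; edgeR quasi-likelihood adjusted p = 0.000648). Where in KCNH2 the edit lies is not stated, so its mRNA level does not check the labels. On the second principal component, knockout 3 was at -59.1 and the remaining knockout libraries at -2.26 to 13.9, and WT 3 and WT 2 stood at -32.2 and -10.1, against 24.96 to 35.8 for the rest of WT. By edgeR at an adjusted p of 0.05, 21.9% of all 19163 tested genes were higher in the knockout and 24.1% lower. Of the tested markers, 4 of 6 for pluripotency were higher and none lower, 2 of 6 neural ones higher and 3 lower, 2 of 3 germ cell ones higher and 1 lower. None of 4 fibroblast markers was higher and 2 were lower, and none of 3 endoderm and liver markers was higher and 1 was lower. The labels leave unsaid whether replicates are separate cultures, so p-values measure the spread between these libraries, which may be technical.

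The label "switched on" held for some of the genes and not for all. At most 2 counts were found in any WT library for 6 of the 10 genes, namely CAT, PNPLA4, ZNF572, CLEC2A, GLT6D1 and LCN9. CYP2R1 had 2 to 4 counts in each WT library. NHLH2 and LRRC37A11P were present at a low level in every WT library, with 24 to 46 and 15 to 28 counts, and SYNC was at 0 in 2 WT libraries and at 17 to 64 counts in the others. The lowest knockout library lay above the highest WT library for all 10, a pattern that the choice of genes fixes and that 16.3% of the 19163 tested genes shared in this direction. All 10 passed the filter on low counts. For the genes that are nearly absent in WT the filter was met through the knockout libraries alone.

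**Figure D1:**
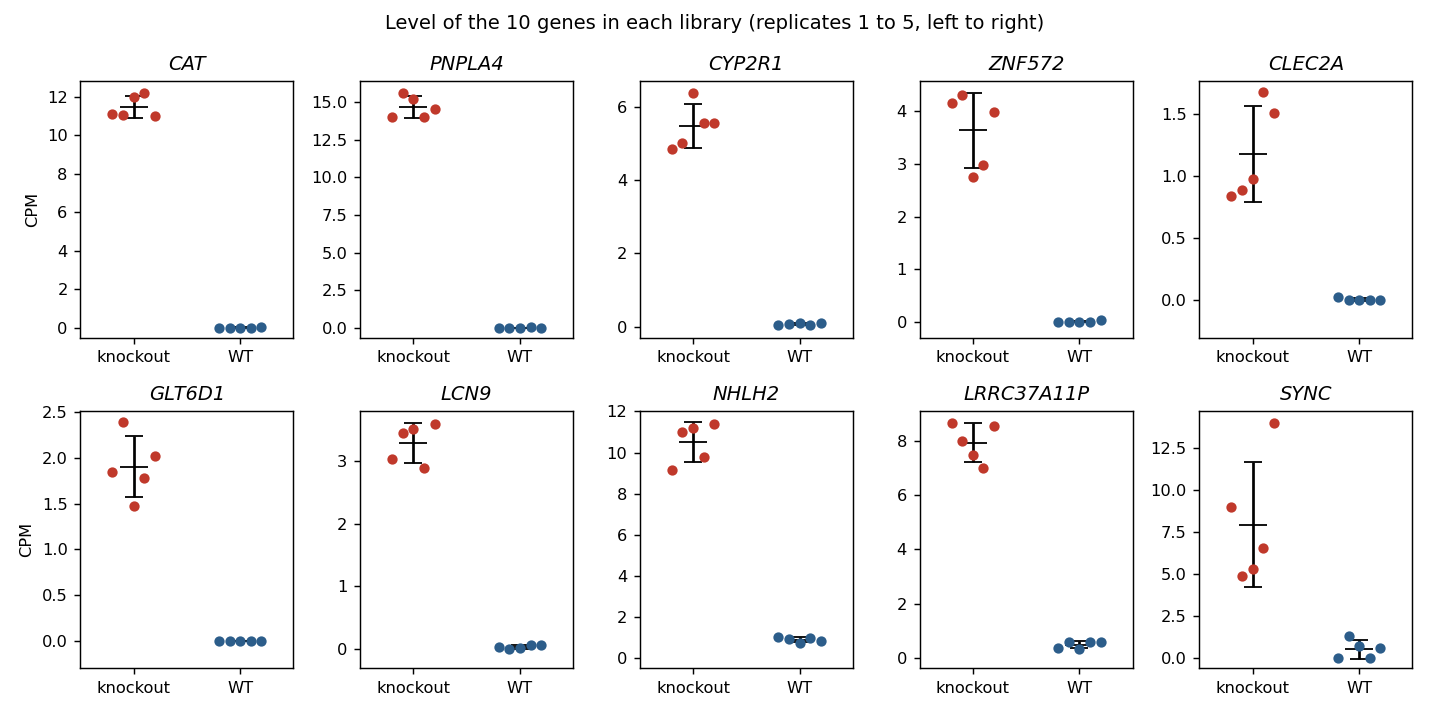
Level of each of the 10 genes in CPM (vertical axes, linear, one scale per gene) in the 5 knockout and 5 WT libraries; points are libraries, the horizontal mark is the mean and the bar the SD. The groups are apart in every panel; SYNC is the most uneven, from 4.87 to 13.96 CPM in the knockout and from 0 to 1.32 CPM in WT.

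The stretches upstream of 5 of these genes, each with at most 4 counts in any WT library, are shown, and the stretches differ in their number of CG dinucleotides. CLEC2A, with 1 count over all of WT, also has a stretch, which is not shown. RefSeq (GRCh38.p14) gave a start for 8 of the 10 genes; ZNF572 and LRRC37A11P had no entry. Where a gene had several starts, the one nearest to the GENCODE gene start was taken. Each line holds the 250 bases before the start, read 5′ to 3′ on the gene's strand, with CG dinucleotides in capitals. CAT is at chr11:34438684-34438933 on the plus strand, PNPLA4 at chrX:7927725-7927974 on the minus strand, CYP2R1 at chr11:14892232-14892481 on the minus strand, LCN9 at chr9:135663059-135663308 on the plus strand and GLT6D1 at chr9:135639541-135639790 on the minus strand.
CAT: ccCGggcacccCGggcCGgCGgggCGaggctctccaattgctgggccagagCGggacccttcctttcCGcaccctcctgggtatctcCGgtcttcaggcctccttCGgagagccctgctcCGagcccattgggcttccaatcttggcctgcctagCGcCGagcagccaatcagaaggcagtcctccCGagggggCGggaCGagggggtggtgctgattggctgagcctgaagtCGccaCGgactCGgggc
PNPLA4: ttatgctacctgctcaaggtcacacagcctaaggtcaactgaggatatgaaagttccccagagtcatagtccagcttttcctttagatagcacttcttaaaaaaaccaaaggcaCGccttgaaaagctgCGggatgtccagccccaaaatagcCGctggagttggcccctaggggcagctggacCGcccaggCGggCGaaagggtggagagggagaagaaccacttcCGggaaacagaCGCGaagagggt
CYP2R1: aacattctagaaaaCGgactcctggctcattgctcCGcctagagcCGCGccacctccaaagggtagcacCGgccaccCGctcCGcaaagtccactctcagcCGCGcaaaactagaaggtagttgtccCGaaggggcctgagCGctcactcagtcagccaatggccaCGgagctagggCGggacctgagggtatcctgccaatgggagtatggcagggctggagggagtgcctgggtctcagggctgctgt
LCN9: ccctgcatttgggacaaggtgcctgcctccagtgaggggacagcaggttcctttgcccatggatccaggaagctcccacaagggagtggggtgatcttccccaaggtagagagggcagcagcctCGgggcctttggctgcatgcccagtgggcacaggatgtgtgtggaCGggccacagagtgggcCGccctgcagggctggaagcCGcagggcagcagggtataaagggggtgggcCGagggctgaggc
GLT6D1: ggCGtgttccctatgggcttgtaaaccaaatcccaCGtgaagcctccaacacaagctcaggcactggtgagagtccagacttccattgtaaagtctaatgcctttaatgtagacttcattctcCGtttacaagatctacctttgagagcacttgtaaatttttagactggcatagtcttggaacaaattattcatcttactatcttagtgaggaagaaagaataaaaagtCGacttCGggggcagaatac

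The CAT stretch held 18 CG dinucleotides, CYP2R1 held 13 and PNPLA4 held 9, while LCN9 and GLT6D1 each held 5. SYNC, whose RefSeq start lies 826 bases from the GENCODE gene start, held 19, CLEC2A held 2 and NHLH2, 2791 bases from the GENCODE start, held 0. By GENCODE the SYNC and NHLH2 stretches lie inside the gene and not before it. Both are kept in the counts that follow. The median over 35116 RefSeq promoter stretches of the same length was 11, with quartiles of 3 and 23. Of the 8 genes with a sequence, 3 were above that median and 5 below it, none was above the upper quartile, and CLEC2A and NHLH2 were below the lower one. CCAAT, searched on both strands, occurred 5 times before CAT, a number reached by 0.319% of all stretches; their first bases on the gene's strand were at -217, -114 and -85, with reverse copies at -123 and -35, counted from the start, and the copy at -217 overlaps a CANNTG match at -216. CYP2R1 and NHLH2 each had 2 copies, reached by 9.53% of stretches, CLEC2A had 1, and 32.0% of all stretches had any. GGGCGG, on both strands, was found once before CAT, PNPLA4, CYP2R1 and LCN9 and 2 times before SYNC, against 42.6% of all stretches with at least 1. TATAAA was found only before LCN9, beginning 29 bases before the start, against 10.7% of all stretches. CANNTG, which reads the same on both strands, occurred before 7 of the 8, against 61.8% of all. These are matches of letters, not sites shown to be used.

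CAT, the catalase gene (ENSG00000121691, chromosome 11, 34438925 to 34472062, plus strand), had 331, 397, 429, 479 and 386 counts in knockout replicates 1 to 5, against 0, 0, 0, 0 and 1 in WT replicates 1 to 5. All 5 knockout libraries were thus near one level, 11.5 ± 0.572 CPM, and the WT libraries were at or below the counting floor. In bulk RNA, more cells that express a gene and more RNA per cell cannot be told apart. Pooled over each group, 2022 counts in the knockout against 1 in WT gave a ratio of 2157 over unscaled totals, with an exact 95% counting interval from 387 to 85233. Its coefficient of variation (CV) among the knockout libraries was 4.99%, and counting alone gives 4.97% at its mean count. Scaled to 3590 bases of exon, its mean knockout level was 3.19 CPM per kilobase, above that of 50.9% of tested genes.

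PNPLA4, the lipase gene (ENSG00000006757, X chromosome, 7898247 to 7927739, minus strand), had the highest knockout level of the set. Its counts were 416, 561, 544, 550 and 510 in knockout replicates 1 to 5, and 0, 0, 0, 1 and 0 in WT replicates 1 to 5. The knockout libraries averaged 14.7 ± 0.719 CPM with a CV of 4.91%, and a single read was found in all of WT. The pooled counts of 2581 in the knockout and 1 in WT gave a ratio of 2753 (494 to 108785). Per length it stood at 4.26 CPM per kilobase in the knockout, above 56.9% of tested genes.

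CYP2R1, the vitamin D 25-hydroxylase gene (ENSG00000186104, chromosome 11, 14877440 to 14892252, minus strand), had a faint signal in each WT library. It had 144, 180, 229, 218 and 195 counts in knockout replicates 1 to 5, against 2, 4, 4, 2 and 3 in WT replicates 1 to 5. Knockout levels ran from 4.84 CPM in replicate 1 to 6.39 CPM in replicate 3, and the mean of 5.47 ± 0.605 CPM stood against 0.0764 ± 0.0216 CPM in WT. The fitted log2 fold change was 6.10 (SE 0.16), and the pooled ratio 68.7 (41.4 to 123). CAT and CYP2R1 lie on the same chromosome, 19.5 megabases apart with 77 tested genes between them.

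ZNF572, the zinc finger gene (ENSG00000180938, chromosome 8, 124973298 to 124979389, plus strand), was less even. It had 124, 155, 99, 117 and 140 counts in knockout replicates 1 to 5, and 0, 0, 0, 0 and 1 in WT replicates 1 to 5. Knockout levels ranged from 2.76 CPM in replicate 3 to 4.31 CPM in replicate 2, around a mean of 3.64 ± 0.717 CPM. The pooled ratio was 677 (121 to 26796).

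NHLH2, the neuronal helix-loop-helix gene (ENSG00000177551, chromosome 1, 115836377 to 115843917, minus strand), was already expressed in WT. Its counts were 273, 395, 401, 385 and 400 in knockout replicates 1 to 5, against 40, 46, 34, 33 and 24 in WT replicates 1 to 5. The means were 10.5 ± 0.968 CPM in knockout libraries, against 0.898 ± 0.107 CPM in WT, with a fitted log2 fold change of 3.54 (SE 0.10). The lowest knockout library, at 9.17 CPM, was 9.06 times the highest WT library, at 1.01 CPM.

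CLEC2A, the lectin-like surface protein gene (ENSG00000188393, chromosome 12, 9898673 to 9932381, minus strand), had the lowest level of the set. It had 25, 32, 35, 66 and 53 counts in knockout replicates 1 to 5, and 1, 0, 0, 0 and 0 in WT replicates 1 to 5. Knockout replicates 4 and 5, at 1.68 and 1.51 CPM, were above replicates 1 to 3, at 0.840 to 0.976 CPM, and the highest was 2.002 times the lowest. The pooled ratio was 225 (40.0 to 8932). CLEC2A is known from skin and its receptor from natural killer cells, and 6 markers of blood lymphoid cells and keratinocytes (PTPRC, CD3E, NKG7, KRT5, KRT14 and TP63) summed to 0.0556 to 0.127 CPM in knockout libraries, against 0.0579 to 0.152 CPM in WT. KRT5 was at 0 in every knockout library.

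GLT6D1 and LCN9 are neighbours on chromosome 9. GLT6D1 (ENSG00000204007, 135623656 to 135639540, minus strand) and LCN9 (ENSG00000148386, 135663322 to 135666422, plus strand) point away from each other, with a gap of 23.8 kilobases and 0 annotated GENCODE genes lying wholly inside it. GLT6D1 had 55, 86, 53, 70 and 71 counts in knockout replicates 1 to 5 and 0 in all 5 WT libraries. Against a floor of 3 counts over the WT group, it was at least 119-fold higher in the knockout over unscaled totals, and its mean there was 1.90 ± 0.336 CPM. LCN9 had 90, 124, 126, 113 and 126 counts in knockout replicates 1 to 5, against 1, 0, 1, 2 and 2 in WT replicates 1 to 5. Its means were 3.29 ± 0.318 CPM in knockout libraries, against 0.0347 ± 0.0278 CPM in WT, and the pooled ratio was 103 (47.0 to 282). The pair did not rank the knockout libraries alike: replicate 3 was the lowest for GLT6D1, at 1.48 CPM, and the second highest for LCN9, at 3.51 CPM.

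SYNC, the syncoilin gene (ENSG00000162520, chromosome 1, 32680360 to 32703596, minus strand), differed from the other 9 in being uneven in both groups. It had 267, 175, 189, 257 and 490 counts in knockout replicates 1 to 5, against 0, 64, 32, 0 and 17 in WT replicates 1 to 5. WT 1 and WT 4 held none, and WT 2, at 1.32 CPM, was the highest of its group. Knockout 5, at 13.96 CPM, was 2.87 times knockout 2, at 4.87 CPM, and the CV in the knockout was 47.1%, or 28.8% without knockout 5. The fitted log2 fold change was 3.84 (SE 0.65). Without knockout 3, WT 2 and WT 3, the libraries that stood apart on the second component, it was 5.66. WT 2 and WT 3 also held the most SYNC counts in WT, 64 and 32, so leaving them out lowers the WT level. The 3' end of SYNC overlaps RBBP4, a histone-binding gene on the opposite strand, by 5852 bases. RBBP4 measured 261 to 271 CPM in knockout libraries, against 273 to 283 CPM in WT, including the WT libraries with 0 SYNC counts, and its adjusted p was 0.0707 (edgeR).

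LRRC37A11P (ENSG00000214553, chromosome 17, 39027277 to 39053205, plus strand) had 258, 287, 268, 274 and 300 counts in knockout replicates 1 to 5, against 15, 28, 15, 20 and 17 in WT replicates 1 to 5. It averaged 7.93 ± 0.714 CPM in knockout libraries, against 0.490 ± 0.123 CPM in WT, with a fitted log2 fold change of 4.02 (SE 0.15). Near-identical copies exist in the family, so reads may be split between them. Of 9 other tested LRRC37 genes, 1 was higher and 1 lower in knockout libraries (edgeR, adjusted p below 0.05), beside 21.9% and 24.1% of all tested genes: LRRC37B, at 12.1 ± 0.167 CPM in knockout libraries, against 9.68 ± 0.538 CPM in WT, and LRRC37A4P, at 11.2 ± 1.20 CPM in knockout libraries, against 16.4 ± 0.940 CPM in WT. Their changes, of 0.32 and -0.56 on the log2 scale, were far smaller than that of LRRC37A11P.

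Scaled to exon length, the mean knockout levels of the 10 genes ran from 0.967 to 4.26 CPM per kilobase. PNPLA4 stood highest, at 4.26 ± 0.209 CPM per kilobase, then CAT at 3.19 ± 0.159, LCN9 at 2.98 ± 0.288, SYNC at 2.27 ± 1.07 and NHLH2 at 1.39 ± 0.128 CPM per kilobase. Below them came GLT6D1 at 1.25 ± 0.220, CYP2R1 at 1.21 ± 0.134, ZNF572 at 1.11 ± 0.219, LRRC37A11P at 1.10 ± 0.0992 and CLEC2A at 0.967 ± 0.318 CPM per kilobase. The means of CAT and LCN9 differed by less than the SD of LCN9, and the SD of SYNC spans the means of LCN9 and NHLH2. The 5 genes from GLT6D1 to CLEC2A were each within 1 SD of the next. Every one of the 10 was an ordinary or low transcript once present: between 29.3% and 56.9% of tested genes had a lower length-scaled level in the knockout.

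**Figure D2:**
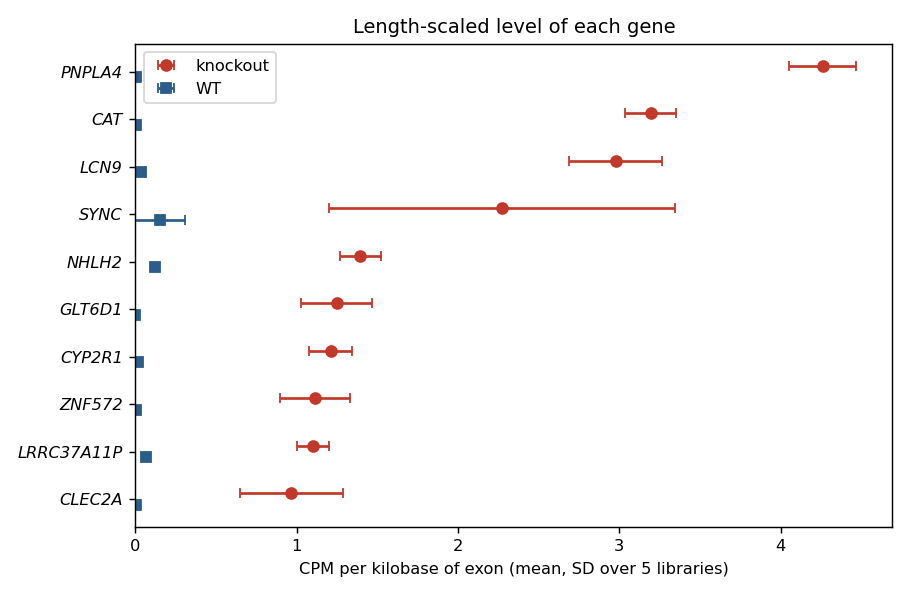
Mean level of each gene in CPM per kilobase of annotated exon (horizontal axis, linear) in knockout (circles, upper) and WT (squares, lower); bars are the SD over 5 libraries. PNPLA4 is highest in the knockout at 4.26 and CLEC2A lowest at 0.967, and WT means do not exceed 0.150.

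The spread between knockout libraries was not used to choose the genes. Over 11228 tested genes with a knockout mean of 1 to 50 CPM, the median CV among the 5 knockout libraries was 8.39%, with quartiles of 5.31% and 14.2%. CAT and PNPLA4 were below the median and the other 8 above it. ZNF572 (19.7%), CLEC2A (32.9%), GLT6D1 (17.7%) and SYNC (47.1%) lay above the upper quartile. Counting alone gives 15.4% for CLEC2A and 12.2% for GLT6D1 at their mean counts, against 6.02% for SYNC and 8.87% for ZNF572. No single knockout library carried the set: replicates 1, 2, 3, 4 and 5 held the highest level for 1, 3, 1, 2 and 3 of the genes and the lowest for 4, 1, 2, 2 and 1.

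**Figure D3:**
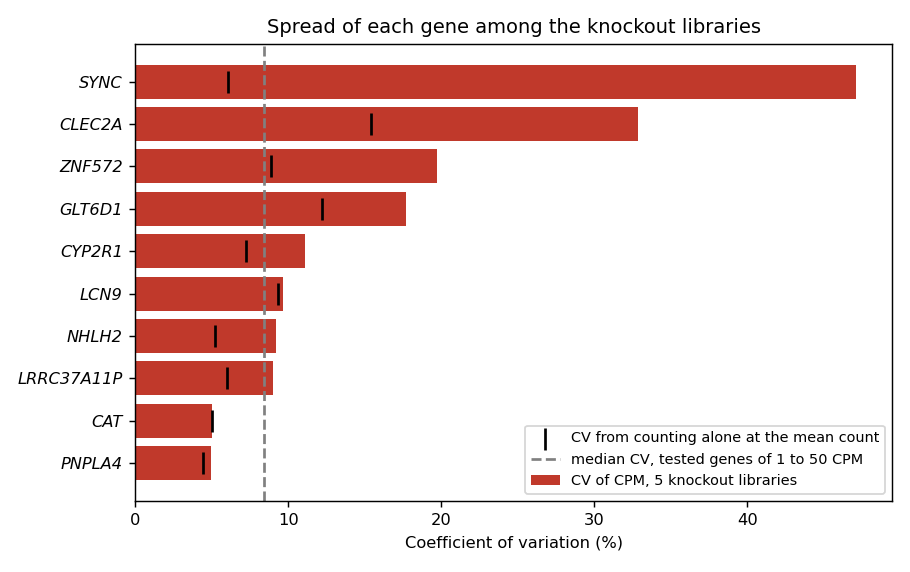
Coefficient of variation of CPM among the 5 knockout libraries for each gene (bars, percent), with the value counting alone gives at the gene's mean count (black ticks) and the median of 11228 tested genes of 1 to 50 CPM (dashed line, 8.39%). SYNC stands out at 47.1%, and the bars of CAT and PNPLA4 end close to their ticks.

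The authors' deposited table gives smaller log2 fold changes for the same genes than the edgeR fit. The values come from different fits over different numbers of genes, so their sizes and ranks are not one measure. PNPLA4 and CAT are first and second of 32152 genes in the authors' deposited table, at 5.57 and 5.27, and CYP2R1 is the sixth, at 3.96. LCN9 (3.54), LRRC37A11P (3.38), NHLH2 (3.16) and GLT6D1 (2.92) rank between 10 and 14 in the authors' deposited table, with ZNF572 at rank 8 (3.58) and CLEC2A at rank 27 (2.11). SYNC is at rank 2394 in the authors' deposited table, with a log2 fold change of 0.29, an adjusted p of 0.0438 and no call, while its rank in the edgeR fit was 24 of 19163. The pooled counts of SYNC gave a ratio of 13.0 over unscaled totals. Of the set, SYNC alone is not called there, so an adjusted p under 0.05 was not enough for a call.

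Few genes of the whole table were near 0 in WT and clearly present in the knockout. With at most 3 counts in each WT library and at least 1 CPM in each knockout library, there were 8 genes, or 0.0249% of 32152, and 5 of the 10 genes were among them: PNPLA4, CAT, ZNF572, LCN9 and GLT6D1. The other 3 were the clone-named transcript Z99496.2, COL22A1 and FAM90A28P. COL22A1, which encodes a collagen of tissue junctions, had 467 counts pooled over the knockout libraries and none over WT, at 2.65 ± 0.110 CPM in the knockout. FAM90A28P, annotated as a transcribed pseudogene, had 252 counts over the knockout libraries and 5 over WT. Z99496.2, named with its values in view, had 1572 over the knockout libraries and 8 over WT. In the opposite direction 3 genes met the same limits, TSPYL5, ZNF229 and CCDC169, or 0.00933% of the table, also named with their values in view. Without knockout replicate 2 there were 5. CLEC2A missed the pattern because its lowest knockout library held 0.840 CPM, and CYP2R1 because its highest WT library held 4 counts.

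By Pearson correlation of log2 CPM over the 10 libraries, the genes most like each of the set had r between 0.976 and 0.999, out of 15816 compared. The split into groups sets most of such a correlation, since the libraries share it. COL22A1 was the closest to PNPLA4, and the clone-named AC012645.1, at 35.5 ± 2.35 CPM in knockout libraries, against 1.80 ± 0.136 CPM in WT, was the closest to both CAT and CYP2R1. The closest to NHLH2 was AIFM1, to GLT6D1 EGR1, to LCN9 AACSP1, to ZNF572 GK, to CLEC2A MRPL39 and to LRRC37A11P DNAJC15. SYNC had the least alike partner, PPIC, at r = 0.976.

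Among the genes around the set, up to 5 tested genes away on each side, a larger share was higher in the knockout than of all tested genes. The 5 tested genes on each side of each gene, in order of gene start along the chromosome, made 90 genes, since GLT6D1 and LCN9 share theirs. Of these, 32 (35.6%) were higher and 15 (16.7%) lower in knockout libraries (edgeR, adjusted p below 0.05), where 21.9% of all 19163 tested genes were higher and 24.1% lower. Their median log2 fold change was 0.11 against 0.00 over all tested genes, and 9 of the 90 moved past 1 in either direction on that scale, as did 3.54% of all tested genes. A gene near 0 in 1 group can meet the filter on low counts only through the other group, which fixes its direction. AC079142.1, at 0 in WT, was such a gene among the 32. The share depends on where the neighbours lie: without those of PNPLA4, 24 of 80 were higher. With no filter on low counts other genes become the nearest: 20 of 90 (22.2%) were then higher, beside 12.3% of all 32152 genes. Of the 18 genes next to a member in order of gene start, 4 (22.2%) were higher and 3 (16.7%) lower. The share higher was thus close to that of all tested genes. These are not always the closest genes: PDE3B, 5.396 kilobases from CYP2R1 and lower, was not among the 18. The farthest of the 90 lay 3960 kilobases away, beside PNPLA4.

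PNPLA4 had the most neighbours that rose, 8 of 10, with 1 lower, whereas 24.5% of the 721 other tested genes on the X chromosome were higher. PUDP, a phosphatase gene 750 kilobases away, rose to 51.8 ± 3.89 CPM in the knockout, against 23.9 ± 0.532 CPM in WT (adjusted p = 1.54e-08), and the clone-named BX890604.2 rose by 1.65 on the log2 scale. VCX3A, a gene of a testis-expressed family picked with its values in view, measured 0.865 CPM in knockout libraries, against 0.113 CPM in WT. The tested gene closest to PNPLA4, the clone-named AC079142.1 at 117 kilobases, also picked with its values in view, measured 0.582 CPM in knockout libraries and was at 0 in WT. AC079142.1 thus met the filter on low counts through the knockout libraries alone, so the filter fixed its direction. The same may hold for VCX3A. ANOS1, the gene of an extracellular matrix protein of neuronal migration, also picked with its values in view, lay next beyond AC079142.1. It fell by 0.23 on the log2 scale, so the rise did not take in every neighbour.

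Around LRRC37A11P, 6 of 10 neighbours rose and 2 fell. PLXDC1, a plexin-domain receptor gene 10.1 kilobases away, rose to 9.94 ± 1.25 CPM in the knockout, against 1.52 ± 0.182 CPM in WT (log2 fold change 2.70, SE 0.11, adjusted p = 1.11e-08). RDM1P5, 3.81 kilobases away and picked with its values in view, rose by 1.75. RPL23 and RPL19, which encode ribosomal proteins, rose by 0.43 and 0.39; the pair lie 173 and 147 kilobases away, and RPL19 was picked with its values in view. LINC00672, likewise picked with its values in view, fell by 0.84.

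Neighbours of the other genes were mixed. CAT had 3 higher and 2 lower of 10, with PDHX, a pyruvate dehydrogenase component gene, higher by 0.29 and CD44, a hyaluronan receptor gene, lower by 0.59. ABTB2, the gene next to CAT at 80.9 kilobases, picked with its values in view, measured 20.8 CPM in knockout libraries, against 19.6 CPM in WT, with an adjusted p of 0.484. CYP2R1 had 4 higher and 3 lower. LINC02751 there fell to 0.732 ± 0.252 CPM in the knockout, against 2.95 ± 0.411 CPM in WT, and PSMA1, a proteasome subunit gene, rose by 0.25. PDE3B, a phosphodiesterase gene 5.396 kilobases from CYP2R1 and picked with its values in view, fell by 0.63.

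ZNF572 had 4 higher and 1 lower, and its nearest neighbour SQLE, a sterol synthesis gene 19.1 kilobases away, fell by 0.47 while TATDN1 rose by 0.33. The shared neighbours of GLT6D1 and LCN9 gave 3 higher and 1 lower, with MRPS2 at 0.19 and UBAC1 at 0.14, and KCNT1, a potassium channel gene picked with its values in view, was at 0.416 CPM in knockout libraries, against 0.332 CPM in WT (adjusted p = 0.352). CLEC2A had 2 higher, LINC02617 (0.70) and MAGOHB (0.30), and none lower. NHLH2 had none higher and 4 lower, among them TSPAN2 (-0.22). SYNC had 2 higher and 1 lower, with ZBTB8B at -0.60 and S100PBP at 0.20.

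**Figure D4:**
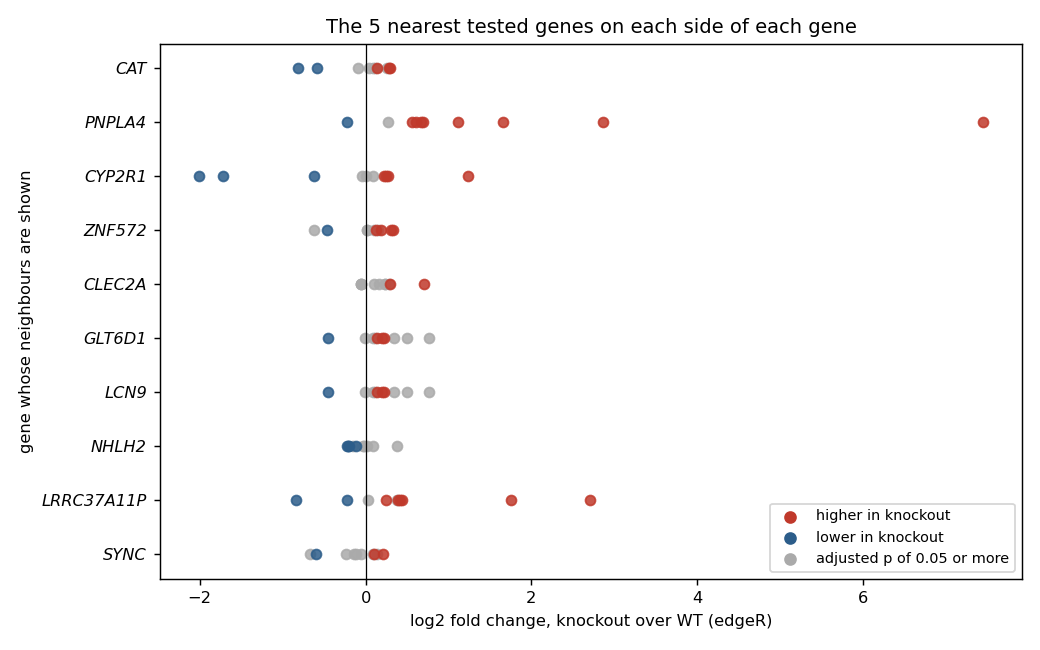
Log2 fold change, knockout over WT, of the 5 tested genes on each side of each member in order of gene start (rows). Red points were higher and blue points lower in knockout libraries (adjusted p below 0.05), grey points were neither. The PNPLA4 row lies mostly right of 0, with 8 of 10 higher and its farthest point at 7.45, a gene at 0 in WT, and GLT6D1 and LCN9 show the same 10 genes.

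Genes that share a pathway or family with the 10 were called about as often as genes at large. The 12 lists held 184 genes, 160 of them in the count table and 110 tested; 24 (21.8%) were higher and 24 (21.8%) lower in knockout libraries (edgeR, adjusted p below 0.05), beside 21.9% and 24.1% of all tested genes. Their median log2 fold change was -0.01. The lists were drawn up with earlier results of these data known.

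Around catalase, 5 of 17 genes listed for peroxisome assembly were higher and 1 lower, with a median log2 fold change of 0.06. The lower one was lost without any of WT 2, 3, 4 or 5 or knockout 2 or 5. PEX5L, named with its values in view, was 1 of the 5 (0.45). It is a relative of PEX5 and not an established assembly gene. PEX14, part of the docking complex for imported proteins, rose to 38.5 ± 3.37 CPM in the knockout, against 30.9 ± 1.26 CPM in WT. Of 6 tested peroxisomal oxidases, which make the peroxide that catalase removes, none was higher and 2 were lower: PIPOX fell by 0.36 and XDH, which is largely cytosolic, by 0.35. Without WT 1 or WT 3 only 1 oxidase was lower.

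Of 6 other tested patatin-like lipase genes, none was higher and 2 were lower. PNPLA3 fell to 9.66 ± 1.14 CPM in the knockout, against 17.1 ± 0.688 CPM in WT, and PNPLA6 fell by 0.18. Of 22 retinoid genes, 4 rose and 4 fell; without knockout 1 there were 9 that rose. CYP26A1, which breaks down retinoic acid, rose to 10.04 ± 0.546 CPM in the knockout, against 4.93 ± 0.445 CPM in WT, and CRABP2, a retinoic acid carrier, to 88.9 ± 9.43 CPM, against 47.6 ± 2.59 CPM in WT. STRA6, a retinol uptake receptor gene picked with its values in view, fell by 0.90. Of 8 vitamin D genes beside CYP2R1, 4 rose and 1 fell: FDXR, which passes electrons to mitochondrial P450 enzymes, rose by 0.66, and DHCR7, which uses up the vitamin D precursor, fell by 0.34. Without knockout 3, WT 2 and WT 3 there were 2 that rose.

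Of 3 tested C-type lectin genes of the natural killer complex group, none was higher and CLEC2L was lower, at 0.784 ± 0.143 CPM in knockout libraries, against 1.17 ± 0.2001 CPM in WT; it was not called without knockout 3, WT 2 and WT 3. Of 8 tested lipocalins, LCN10 (0.44) and APOM (0.41) were higher and none was lower, with 1 higher without any of WT 2, WT 3, knockout 2 or knockout 5 and 0 without knockout 3, WT 2 and WT 3 together. Of 2 tested relatives of GLT6D1, GBGT1 was higher by 0.63. Of 10 neuronal helix-loop-helix genes and partners, LMO4 was higher (0.29) and 4 were lower, TCF4 among them (-0.29). Leaving out any single library gave 2 to 3 that were lower, with 2 when WT 3, WT 5 or knockout 3 was the one left out. The DESeq2 Wald test also gave 2. Of 14 dystrophin-complex and filament genes around SYNC, 6 rose and 3 fell. Without both replicate 3 libraries 3 rose, leaving out single libraries gave 4 to 8 that rose, and without knockout 3 there were 5 that fell. DMD, the dystrophin gene, rose to 15.0 ± 0.829 CPM in the knockout, against 8.19 ± 0.286 CPM in WT, and VIM, vimentin, rose by 0.54.

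Germline genes were counted as well. Of 6 tested, out of 19 in the count table, none was higher and 5 were lower in the knockout (edgeR), with a median log2 fold change of -0.62. Leaving out single libraries gave 4 to 5 that were lower, and the filter of at least 1 CPM in 5 libraries gave 3. DAZL fell to 1.29 ± 0.268 CPM in the knockout, against 3.10 ± 0.383 CPM in WT. SOHLH2 was at 0 in every knockout library and at 0.394 ± 0.0633 CPM in WT, so it met the filter on low counts through the WT libraries alone. Germ cell markers went both ways: TFAP2C and PRDM1, transcription factor genes of early germ cells named with their values in view, were higher, at 5.31 ± 0.688 and 0.823 ± 0.389 CPM in knockout libraries, against 3.97 ± 0.516 and 0.280 ± 0.0283 CPM in WT, with log2 fold changes of 0.42 and 1.56. DDX4 and NANOS3 were below 0.05 CPM on average in both groups.

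**Figure D5:**
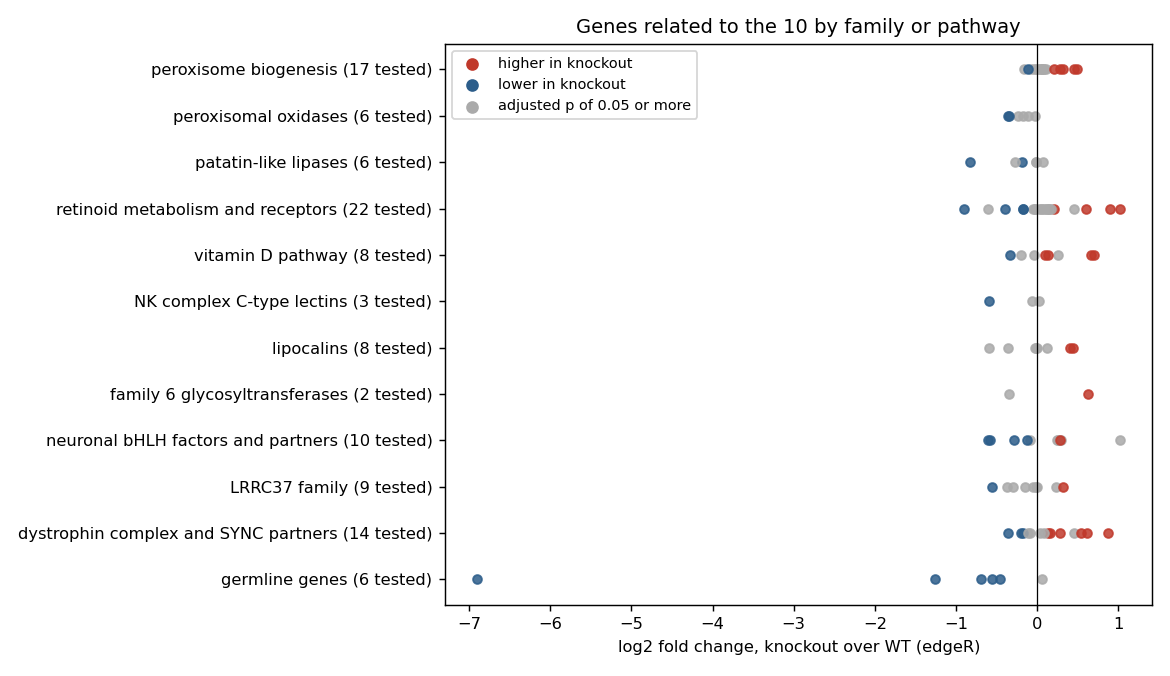
Log2 fold change, knockout over WT, of the tested genes of each of 12 families or pathways related to the 10 genes (rows); red points were higher and blue points lower at an adjusted p under 0.05, grey points neither. Most lists straddle 0, and the germline row lies mostly left of it, with 5 of 6 lower.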

How the data were processed

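Raw gene counts of 10 libraries were deposited by the authors. Build hg38 and the tools DESeq2 and R (3.6.3) come from the submitters' processing notes, while aligner, counting tool, gene models and use of strand are not stated. In the deposited comparison table, per the file headers, are a mean normalised signal, log2 fold changes and their errors, a score (the test statistic), and p-values with adjusted values; symbols and quoted fold changes came from it. Columns were matched to samples by library name, and groups and replicates came from the titles. The 10 genes, the lists and the tests were chosen with earlier results of these data known. Counts were fitted with edgeR 4.0.16 in R 4.3.3 (glmQLFit, glmQLFTest, TMM, filterByExpr) over 19163 genes, with Benjamini-Hochberg adjustment; the steps were tested on simulated data. The SE given with an edgeR log2 fold change is its absolute value over the square root of the F statistic. It is thus derived from the test and not fitted separately. Log2 CPM used a prior count of 2. Ratios of pooled counts carry exact 95% intervals, which cover counting error only. Positions and exon lengths are from GENCODE 29 (GRCh38), with 31146 of 32152 genes placed. Replicate pairs differed by a chi-square per degree of freedom of 3.59 to 26.2, above sampling noise. Named genes are the 10, KCNH2, up to 2 called neighbours per gene and 2 called genes per list by smallest p, 5 or fewer others off in WT and on in the knockout, and the most alike gene to each. Alternatives were DESeq2 1.42.0 (size factors, Wald test), limma 3.58.1 voom, 2 other filters, a replicate block, and leaving out libraries; leaving out knockout 3, WT 2 and WT 3 together was added after seeing the data. Some genes that this rule names are not reported here.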

Additional observations from a re-analysis of the deposited data

Results flagged for a closer look

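In 4 of the 20 groups of libraries examined for the 10 genes, 1 library lay far from the others of its group. All were WT groups in which the other 4 libraries were at 0 and 1 held a single count: CAT in WT 5 (0.0340 CPM), PNPLA4 in WT 4 (0.0290 CPM), ZNF572 in WT 5 (0.0340 CPM) and CLEC2A in WT 1 (0.0253 CPM). Each is below the 3 counts that a count of 0 allows. The other 4 libraries of these groups had no spread, so the usual chance rate of about 1 in 20 does not apply to them.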

How the results depend on the processing

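No direction was reversed under any alternative run. Among fold changes of the 10 genes, 153 of 179 alternative values stayed within the spread and 26 moved; of 432 list counts 40 moved by over 1.5 times. With no filter on low counts, 20 neighbours (22.2%) were higher in the knockout, beside 12.3% of all genes, where the filtered fit gave 35.6% beside 21.9%. Genes off in WT and on in the knockout numbered 5 with at most 1 count in each WT library, and 3 with at least 5 CPM in each knockout library, 2 of them among the 10. In the opposite direction there were 13 with at most 10 counts and 1 with at least 5 CPM. With 2 or 10 tested genes on each side, 33.3% or 27.8% of neighbours were higher. The cause of these moves was not tested, beyond the other limits and gene sets used.

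Leaving out each library in turn gave 3846 to 4537 genes higher and 4150 to 4517 lower in the knockout, 31 to 36 neighbours higher and 14 to 17 lower, and 21 to 29 related genes higher and 20 to 24 lower. Genes off in WT and on in the knockout stayed at 8, with 5 of the 10 genes among them, and the reverse gave 3 to 5. Retinoid genes higher in the knockout ranged from 4 to 9 and the log2 fold change of SYNC from 3.52 to 4.58. Without knockout 3, WT 2 and WT 3, chosen after seeing the data, 30 neighbours and 17 related genes were higher, 13 and 16 lower.

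Replicate numbers did not pair the libraries: same-numbered libraries correlated at -0.16 to 0.70 in their deviations from the group means, and 1 library correlated best with its own number. With a replicate block, 4258 genes were higher and 4300 lower, 32 and 15 of the neighbours, and 22 and 20 of the related genes. With at least 1 CPM in 5 libraries, CLEC2A was not tested and the other 9 were. Depth limits the ratios of genes with 0 or 1 count in all of WT, whose upper bounds are loose.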
